A study of Schizosaccharomyces pombe with 8 samples.

Results

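The stretch of fission yeast (Schizosaccharomyces pombe) chromosome I from position 1149001 to 1154000 gathered more ligated DNA ends than any other of 50 hotspots in both Rec27-GFP libraries analysed. It covers SPAC56F8.13, SPAC56F8.15, 2250 bp of mug115 and 421 bp of esc1. The 50 hotspots were called in the de-crosslinked library alone and differ in width, and this one is the widest at 5 kb. Per kb it ranked 2 of 50 in the de-crosslinked and 10 of 50 in the interacting library. The locus was chosen by its number of ends in these same 2 libraries, so that number is given as a description with no test. Every pair of joined ends with at least 1 end in these 5 kb was taken, which came to 810 of 101984 pairs in the interacting library and 1707 of 123434 pairs in the de-crosslinked library.

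The cells were of genotype pat1-114 rec12D in both libraries, and the series title asks how distant points along meiotic chromosomes communicate. The pat1-114 allele is temperature sensitive and lets meiosis be started by warming, and rec12D is a deletion of rec12, so that both libraries come from cells in which meiotic breaks are not made. Cells spent about 18 h without nitrogen, received nitrogen with a shift to 34 °C and were collected at 3.5 h, and 500 mL of culture was fixed in formaldehyde at 1%, per the labels' protocols. Chromatin was sheared to about 1000 bp, GFP-tagged Rec27 was immunoprecipitated, and the DNA was ligated either on the beads with its crosslinks in place (interacting) or after crosslinks and protein had been removed (de-crosslinked). Each group has 1 library and no replicate, and no input or untagged library was used here, so Rec27 binding and other reasons for a high count cannot be told apart.

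Linear elements are the protein axes of fission yeast meiotic chromosomes, and Rec27 is one of their small coiled-coil components. They bind along chromosomes most densely at DNA break hotspots, the places where Rec12, the fission yeast Spo11 protein, cuts DNA to begin recombination. The genes named mug are meiotically upregulated genes. The annotation gives esc1 as a gene for a transcription factor, mug115 as a protein gene with no stated function, and SPAC56F8.13 and SPAC56F8.15 as uncharacterized proteins.

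The DNA was amplified before it was fragmented, per the labels' protocols, so 1 junction can appear as several pairs with slightly different ends. Pairs whose 2 ends both lay within 500 bp of those of another pair were therefore joined and counted once, as 1 ligation event, although whether they are copies was not tested. The libraries held 35511 interacting and 56018 de-crosslinked events, at 2.87 and 2.20 pairs per event, and their median 1 kb bin held 12 and 15 ends. Intervals are at 95% and cover counting error only, and an end count that includes copies has an interval that is too narrow.

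The densest 300 bp of the locus in the de-crosslinked library lay at chrI:1151501-1151800, in the gap between the divergent genes mug115 and SPAC56F8.15, 250 bases from the start of mug115 and 267 from that of SPAC56F8.15. Its sequence is shown because it is the point where ends of that library were most concentrated. It is the plus strand of ASM294v3, read 5′ to 3′, and capitals mark runs of at least 8 bases that are all C or T.
densest 300 bp: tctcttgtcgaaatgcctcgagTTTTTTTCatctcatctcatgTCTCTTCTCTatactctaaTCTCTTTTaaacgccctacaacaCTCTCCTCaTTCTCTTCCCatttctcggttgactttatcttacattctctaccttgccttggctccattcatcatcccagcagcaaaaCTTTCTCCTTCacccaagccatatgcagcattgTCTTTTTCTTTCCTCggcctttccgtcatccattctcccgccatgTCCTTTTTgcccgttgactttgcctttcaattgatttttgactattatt

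This strand was 73% C or T, and 8 runs of at least 8 such bases made up 78 of its 300 bases, the longest of 15 bases from 1151707 to 1151721. Of 41905 tiles of 300 bp over the genome, 0.148% reached that share on their richer strand, against a median tile of 53.3%. The property was looked at after the sequence had been seen, so it is a description. The 300 bp peak on the right of the locus reached 75%, which 0.0764% of tiles reached, but the peak on the left had 56% on its richer strand, which 25.9% of tiles reached. The strand bias was therefore shared by 2 of the 3 peaks. At the other 49 hotspots the densest 300 bp had a median of 66.7% (range 50.3% to 83.0%), and 16 of them equalled or passed the locus. A share of 70% or more was found in 17 of these 49 and in 0.406% of tiles. GC content of the shown sequence was 42.0%, against 39.6% over the locus and 36.1% over the genome.

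Recognition motifs of 4 meiotic or stress regulators were searched on both strands in the 300 bases and in the promoters (250 bases before to 50 after each gene's start). ATGACGT, the M26 site of Atf1-Pcr1, is in 1.55% of 5112 promoters, and CCAATCA, the element bound by the Php complex, in 2.41%. Neither was found in the 300 bases, in the promoters of the 4 genes or anywhere in the 5 kb, and 10.2% and 41.0% of 5 kb tiles hold them. TTCTTTG, the core of the box bound by Ste11, is in 9.94% of promoters, and GTAAACA, the core of the Mei4 site, in 16.5%. Each occurred once in the promoter window of mug115, at 1151280 and 1151224, and in none of the 3 peaks. The GTAAACA match lies inside the coding sequence of mug115, because its annotated start at 1151250 is also where coding begins. The window takes in 50 bases after that start. Over the whole locus TTCTTTG occurred 4 times and GTAAACA 2 times, and 88.2% and 79.3% of 5 kb tiles hold at least 1 of each. A match is a description, and no match says only that these letters are not in the window.

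The locus held 854 ends in the interacting library (Poisson interval 798 to 913) and 1833 in the de-crosslinked library (1750 to 1919). That was 0.419% (0.391% to 0.448%) and 0.743% (0.709% to 0.777%) of all ends, or 170.8 and 366.6 ends per kb. Counted by events, the locus held 331 ends of 327 events and 764 ends of 762 events, which were 0.466% and 0.682% of event ends. The locus thus took a larger share of the de-crosslinked than of the interacting library on either count. The ratio of the shares of ends, interacting over de-crosslinked, was 0.564, and 16 of the other 49 hotspots had a lower one (range of the 49 from 0.0523 to 1.44, median 0.654). All 50 were called by their de-crosslinked ends alone, which favours ratios below 1, so these ratios and the ranks that follow are descriptions only. Per kb the locus ranked 2 of 50 in the de-crosslinked and 10 of 50 in the interacting library. By event ends per kb it ranked 2 and 4.

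Nearest to it in log2 ends per kb over both libraries were the hotspots at gti1, an inducer of gluconate transport, with 173.7 interacting and 406 de-crosslinked ends per kb, and at pdc201, a pyruvate decarboxylase gene, with 164 and 330.5. The next was at pfl2 and SPAPB15E9.02C, with 171.5 and 317.5. Their distances from the locus in log2 units were 0.15, 0.16 and 0.21, over the 2 libraries.

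The 5 bins of 1 kb from left to right held 105, 162, 174, 246 and 167 ends in the interacting library and 260, 275, 437, 493 and 368 in the de-crosslinked library. The fourth, from 1152001 to 1153000 over SPAC56F8.15, was the fullest in both, at 20.5 and 32.9 times the median bin, and held 28.8% (25.8% to 32.0%) and 26.9% (24.9% to 29.0%) of the locus's ends. At least 10 times the median was reached by 5 of the 5 bins in the de-crosslinked library, where 0.668% of all 12573 bins reached it, and by 4 of 5 in the interacting library, where 0.453% did. The locus was chosen by these counts, so nothing is read from the comparison.

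The edges of the locus were unequal. The bin just left, from 1148001, held 21 interacting and 19 de-crosslinked ends, near the median of the 20 bins on that side (14 and 18.5). The bin just right, from 1154001, mostly over the untranslated leader of esc1, held 97 and 122 ends, 8.08 and 8.1 times the median bin, and the next held 42 and 45. On the left the second bin, from 1147001, held 36 and 11 ends, and the fullest of the 20 on that side held 49 in each library. The step down was therefore steeper on the side of mug115 than on that of esc1 in the first bin, while in the interacting library the second bins were nearly alike. None of the 40 flanking bins in either library reached 10 times the median. Every one of the 854 and 1833 ends was classed hot by the authors, whose hot class ran over the locus from 1147142 to 1155770 with no cold end between. The 5 kb held 81.8% of the 1044 interacting and 90.4% of the 2027 de-crosslinked ends of that hot region.

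**Figure D1:**
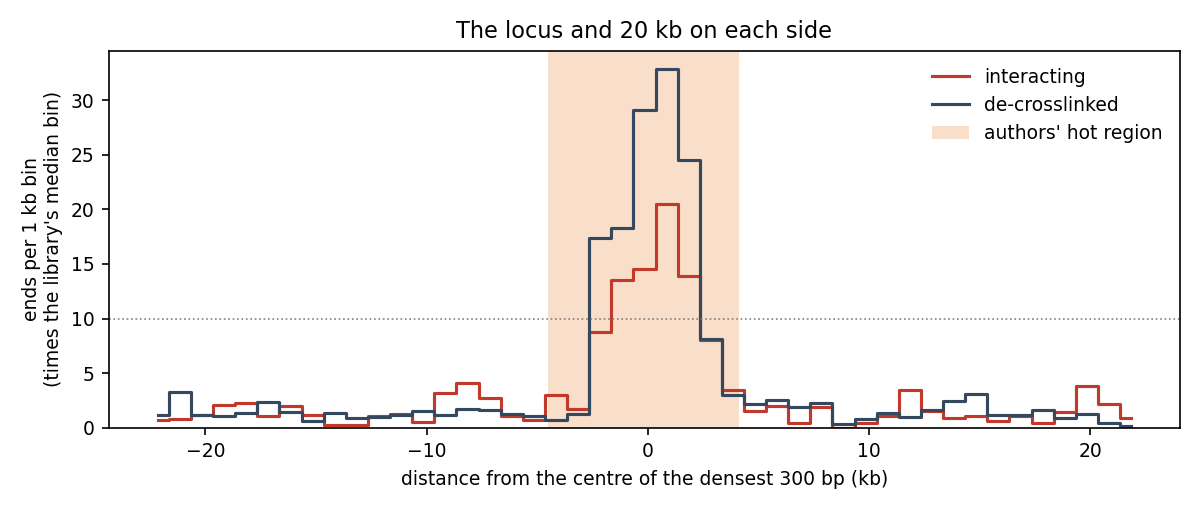
Ends per 1 kb bin as a multiple of each library's median bin (vertical axis) against distance in kb from the centre of the densest 300 bp (horizontal axis), for the interacting and de-crosslinked libraries; the shaded band is the run of ends the authors classed hot and the dotted line marks 10 times the median. The 5 bins of the locus stand from 8.75 to 20.5 in the interacting and from 17.3 to 32.9 in the de-crosslinked library, and the bin just to the right is at 8.08 and 8.1.

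Within the 5 kb the ends formed 3 peaks. The left peak lay over the start of SPAC56F8.13 and inside the transcribed but noncoding part of mug115, the middle one in the gap between mug115 and SPAC56F8.15, and the right one in the transcribed noncoding part of SPAC56F8.15. In the de-crosslinked library their best 300 bp held 203 (176 to 233), 233 (204 to 265) and 205 (178 to 235) ends, so the intervals of the 3 overlap. In the interacting library they held 123 (102 to 147), 106 (86.8 to 128) and 129 (108 to 153), and these overlap too. Which peak is highest is therefore not distinguishable at this depth, although the middle one had most ends in the de-crosslinked library, at 51.8 times the median bin per kb, and the right one in the interacting library, at 35.8 times. By event ends the peaks held 90, 103 and 88 in the de-crosslinked and 43, 39 and 45 in the interacting library.

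Between the peaks the counts dropped in both libraries. The lowest 300 bp of the de-crosslinked library held 44 ends between the left and middle peaks (from 1150801 to 1151100, over the coding sequence of mug115) and 85 between the middle and right ones. In the interacting library the lowest held 8 (3.45 to 15.8), from 1151201 to 1151500 over the start of mug115, and 37 (26.1 to 51.0) between the middle and right peaks. By event ends the lowest 300 bp held 19 and 40 after crosslink removal and 8 and 9 with crosslinks kept. The left low point then lay from 1151201 to 1151500 in the de-crosslinked and from 1150701 to 1151000 in the interacting library. Its place within or beside mug115 thus depended on the way of counting. Over the 50 bins of 100 bp the 2 profiles correlated with Pearson's r of 0.72 and Spearman's rho of 0.72, and with 0.84 and 0.77 when event ends were used. The bins are neighbours on 1 locus and share its base composition, and their ends correlated with GC content at r of -0.39 for the interacting profile and -0.32 for the de-crosslinked profile.

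**Figure D2:**
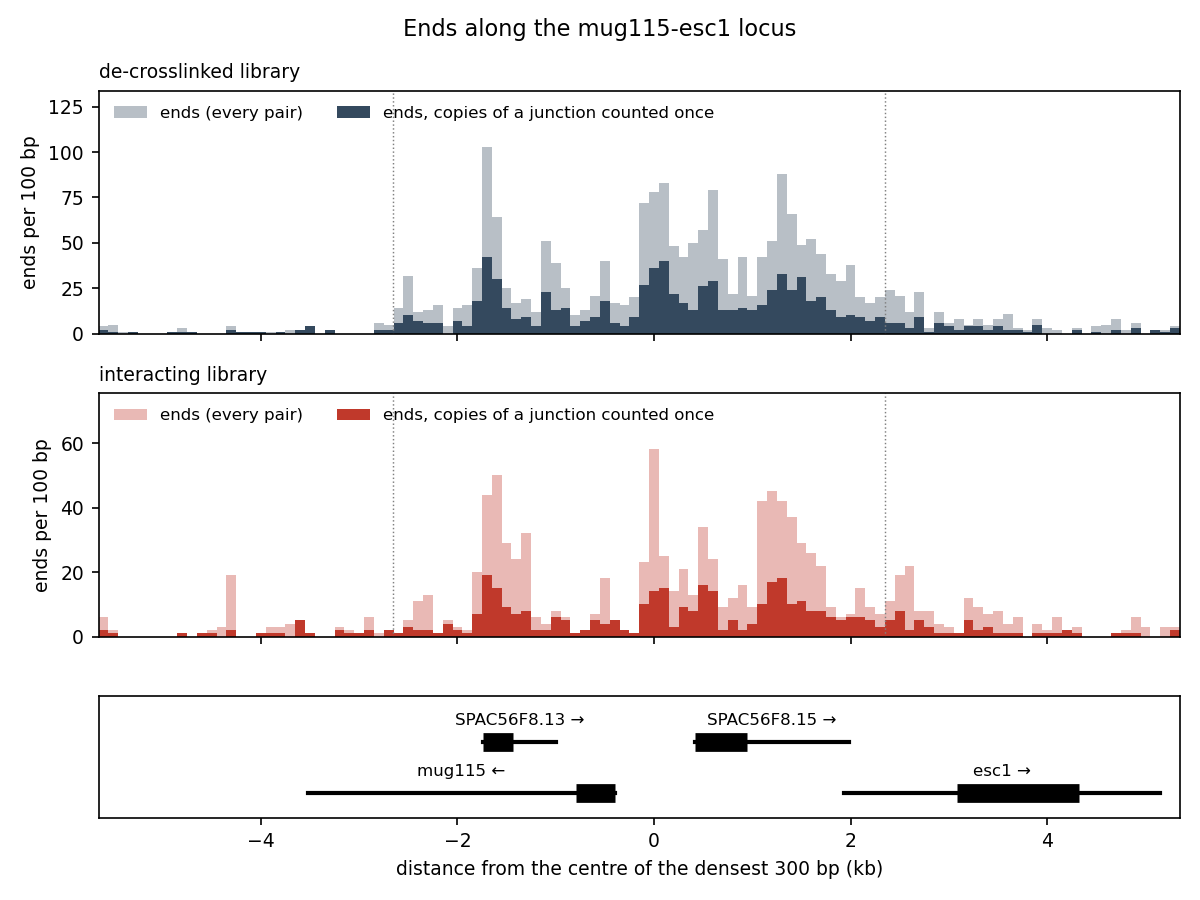
Ends per 100 bp (vertical axes) against distance in kb from the centre of the densest 300 bp (horizontal axis); pale bars count every pair, dark bars count copies of a junction once, dotted lines mark the 5 kb locus, and the bottom panel shows annotated transcripts as lines and coding sequences as boxes with arrows for strand. The left, middle and right peaks hold 203, 233 and 205 de-crosslinked ends in their best 300 bp and 123, 106 and 129 interacting ends.

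The genes differed in how densely they were covered. SPAC56F8.13, on the plus strand from 1149911 to 1150659, had 254 interacting and 417 de-crosslinked ends per kb, and SPAC56F8.15, on the plus strand from 1152068 to 1153638, had 234 and 479. Across its whole transcript, from 1148131 to 1151250 on the minus strand, mug115 had 99 and 198, and esc1, from 1153580 to 1156804 on the plus strand, had 58.6 and 91.2. The whole of SPAC56F8.13 lies inside the mug115 transcript on the opposite strand, and the transcripts of SPAC56F8.15 and esc1 overlap at their edge, so an end there counts for both genes. Positions of ends carry no strand of transcription.

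The coding sequence of SPAC56F8.13 (1149911 to 1150216) was the densest stretch between gene boundaries in both libraries, with 408 (340 to 487) interacting and 631 (545 to 726) de-crosslinked ends per kb. The coding sequence of mug115 (1150855 to 1151250) had 73.2 (49.0 to 105) and 222 (178 to 274), below both of the stretches beside it, which on its left had 122 (96.6 to 153) and 260 (222 to 303), so the de-crosslinked intervals on that side overlap. The 910 bp on the left edge had 68.1 and 173. The gap from mug115 to SPAC56F8.15, 817 bp long, had 190 and 487, the coding sequence of SPAC56F8.15 had 188 and 492, and the stretch from there to the start of esc1 had 272 and 479. That last stretch held the most ends of any, 31.3% of the interacting and 25.6% of the de-crosslinked ends of the locus.

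Within esc1 the coding sequence was less densely covered than the leader. The 421 bp inside the locus had 90.3 (63.9 to 124) interacting and 238 (193 to 289) de-crosslinked ends per kb, and the rest of its untranslated leader had 102 (80.6 to 128) and 139 (114 to 169). Its coding sequence, from 1154733 to 1155974, had 51.5 (39.7 to 65.8) in both, which was 4.29 and 3.44 times the median bin. The leader of esc1 inside the locus was thus covered as densely as the rest of the leader, within counting error, in the interacting library, and more densely in the de-crosslinked library. Over the 5 kb, coding sequence made up 24.7% of the length and held 29.7% of the interacting and 29.6% of the de-crosslinked ends.

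Pairs with both ends inside the locus were found 44 times with crosslinks kept and 126 times in the de-crosslinked library, which used 10.3% and 13.8% of its ends. The tables hold no pair on 1 chromosome closer than 1999 bp, so only ligations that span at least that far can be seen, and these spanned 2044 to 3580 bp (median 2388) and 2001 to 4151 bp (median 2512). Random joining of each library's ends at these distances would give 0.572 and 2.00 pairs, so the observed counts were 77.0 (55.9 to 103) and 62.9 (52.4 to 74.9) times that. These ratios count every pair, copies included, so their intervals are too narrow and their size may be raised by copies. No comparison of the libraries is drawn from them. The locus was split at 1150950 and 1152550 into parts around the peaks, and these parts are wider than the peaks. Left and right parts were joined by 20 and 55 pairs, left and middle by 12 and 42, and middle and right by 12 and 29. The best 300 bp of neighbouring peaks lie too close together to be joined by pairs this long. The distance limit thus shapes these counts, and nothing is read from their order. Copies cannot be separated from distinct junctions so close together, since linking at 500 bp leaves 4 and 2 events and linking at 100 bp leaves 12 and 25. The hotspot at gti1 had 0 and 19 such pairs within its 3 kb, and the one at ste11, the gene of the transcription factor that starts sexual differentiation, had 19 and 37 within its 4 kb.

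Partner ends at least 5 kb away or on another chromosome are not open to that limit, and they were not used in choosing the locus. Such events numbered 318 with crosslinks kept and 759 in the de-crosslinked library. The interacting partners were 43.1% on chromosome I, 33.3% on II and 23.6% (19.0% to 28.6%) on III, and the de-crosslinked ones were 44.3%, 35.8% and 19.9% (17.1% to 22.9%). The share of all event ends on chromosome III was 19.5% and 19.0%, so in neither library did the partners leave that share beyond counting error. In all, 56.9% (51.3% to 62.4%) of interacting and 55.7% (52.1% to 59.3%) of de-crosslinked partners lay on another chromosome. These differed by 1.19 percentage points (-5.32 to 7.59, adjusted p = 0.861, two-sided Fisher's exact test), and the sign turned under 3 alternatives. This and the other 10 Fisher tests on partner shares were adjusted together by the Benjamini-Hochberg method, and each compares libraries or loci of 1 library, not conditions.

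Partners close to the locus on its own chromosome took a larger share in the interacting than in the de-crosslinked library; with 1 library each, this compares the libraries and not the ways of ligation. Within 100 kb lay 17 of 318 interacting partners, or 5.35% (3.15% to 8.42%), and 6 of 759 de-crosslinked partners, or 0.791% (0.291% to 1.71%). The difference was 4.56 percentage points (2.37 to 7.63, p = 1.12e-05, adjusted p = 0.000124, exact). Most of it lay nearest to the locus. With partners under 20 kb left out the shares were 2.27% and 0.528%, and the difference of 1.74 points no longer passed the threshold (adjusted p = 0.0939, exact). With every pair counted, copies included, it was 11.2 points. The direction was not particular to the locus. Interacting and de-crosslinked near shares were 10.69% and 1.763% for all other ends of chromosome I, 8.543% and 1.255% at gti1 and 15.26% and 1.008% at ste11.

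Set against random joining, in which a partner falls in a distance band as often as the library's ends lie there, the excess of interacting partners counted by events had an interval above 1 in the bands under 20 kb and in no other band. From 5 to 10 kb there were 5 events where 0.328 would be found at random, a ratio of 15.3 (4.96 to 35.6), and from 10 to 20 kb there were 5, a ratio of 9.02 (2.93 to 21.1). From 20 to 100 kb there were 7 events, 1.66 times the random level (0.667 to 3.42), which includes 1, and beyond 100 kb each band's interval included 1 as well. With every pair counted, copies included, the ratio from 20 to 100 kb was 2.55. The de-crosslinked library had 0 events from 5 to 10 kb, where the interval reaches up to 5.90 times the random level, and 2 from 10 to 20 kb, a ratio of 1.61 (0.195 to 5.83). It had 4 from 20 to 50 kb and 0 from 50 to 100 kb, where the ratio was at most 0.653. The interacting excess under 20 kb was not particular to the locus. From 5 to 20 kb the ratio was 11.34 (5.437 to 20.85) at the locus, 11.94 (3.879 to 27.88) at gti1 and 15.73 (6.322 to 32.4) at ste11. In the 20 to 100 kb band of the interacting library the hotspot at gti1 had 12 events at 4.32 times its random level (2.23 to 7.55), and the one at ste11 had 22 at 10.8 times (6.78 to 16.4).

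**Figure D3:**
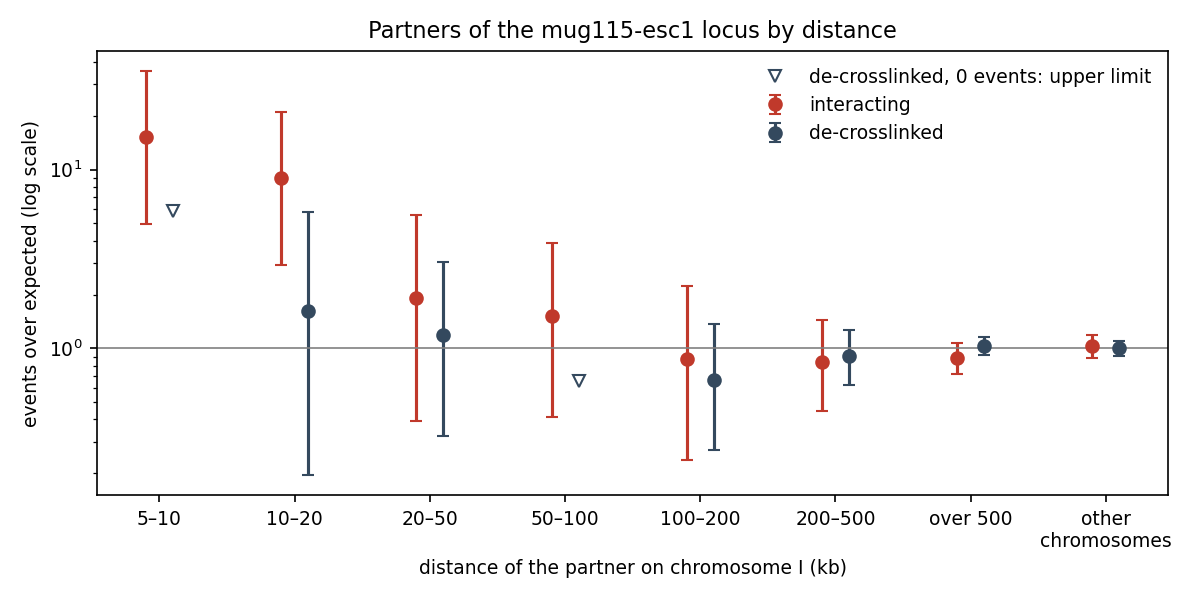
Events joining the locus to partners in each distance band, divided by the number that random joining of the library's ends would give (log scale), for the interacting and de-crosslinked libraries; bars are exact 95% Poisson intervals and open triangles are upper limits where no event was seen. The interacting library stands at 15.3 from 5 to 10 kb and 9.02 from 10 to 20 kb, and the other intervals of that library include 1.

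The near share of the locus lay in the lower part of the range over hotspots. Other ends of chromosome I had 10.7% of interacting and 1.76% of de-crosslinked partners within 100 kb, and other hot ends of the chromosome had 11% and 1.66%. Of the 43 other hotspots with at least 20 interacting partners, 35 had a higher near share than the locus, with a median of 11.8%. Of 44 in the de-crosslinked library 32 had a higher one, with a median of 1.34%. Against the hotspot at ste11, leaving out events that join the 2 loci, the interacting near share was 5.36% of 317 against 15.3% of 189, lower by 9.98 points (difference -9.98, interval -16.1 to -4.59, p = 0.000331, adjusted p = 0.00182, exact). That call was lost when near meant within 50 kb (4.10% against 9.52%, adjusted p = 0.111, exact), and the difference was -6.40 points with every pair counted. Against gti1 the interacting difference of -3.22 points (-8.36 to 1.17, adjusted p = 0.442, exact) did not pass. In the de-crosslinked library the differences from gti1, -0.47 points (-2.01 to 0.683), and from ste11, -0.22 points (-1.63 to 0.874), did not pass either (adjusted p = 0.861 for both, exact), and both turned sign when near meant within 50 kb. With every pair counted both passed, at -1.37 points for gti1 (adjusted p = 0.00967, exact) and -1.66 points for ste11 (adjusted p = 0.0035, exact), where copies of a junction count as separate.

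**Figure D4:**
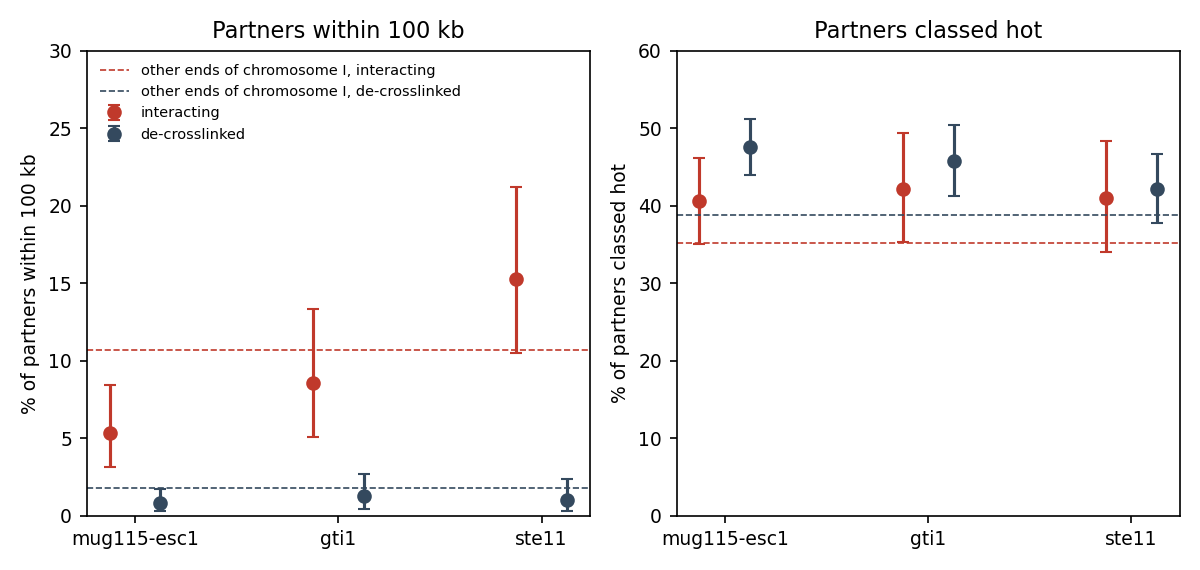
Shares of partners within 100 kb (left) and of partners the authors classed hot (right), in percent, for the locus and the hotspots at gti1 and ste11; points are single libraries, bars are exact 95% Clopper-Pearson intervals and dashed lines are all other ends of chromosome I. The interacting near share is 5.35% at the locus, 8.54% at gti1 and 15.3% at ste11, while the hot shares lie between 40.6% and 47.6%.

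The near partners of the interacting library lay mostly to the right, on the esc1 side. Within 20 kb there was 1 event on the left and 9 on the right, and within 100 kb there were 4 and 13. The de-crosslinked library had 1 and 1, and 2 and 4. The side was noticed in the data, so no test is given. Of the 17 interacting near partners 4 were classed hot, as were 2 of the 6 de-crosslinked ones.

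Of the places within 100 kb, the 5 kb tile from 1155001 to 1160000 had the most events. It covers the end of esc1, pso2, which encodes a DNA 5′ exonuclease, and mug103, and it was joined by 5 interacting events of 19 pairs and 0 de-crosslinked events, against 0.157 and 0.416 at random. Of the 5 ends, 4 fell in pso2 and 1 in mug103, at 5.65 to 8.01 kb from their partner end. The next was a hot region from 1163739 to 1168410 over fsh2, a serine hydrolase-like gene, and ogm1, a protein O-mannosyltransferase gene, with 3 interacting events at 10.3 to 15.6 kb and 1 de-crosslinked event at 17.9 kb. The tile over hus5, rpl3802, izh3 and rad52, the recombination mediator gene, had 2 interacting events of 21 pairs, at 50.7 and 52.0 kb. The tile over mug84 and SPAC22A12.14C had 2 interacting events of 1 pair each, at 29.2 and 28.7 kb.

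Junctions of 1 pair were common among all partners, 68.6% of the 318 interacting and 59.95% of the 759 de-crosslinked events. The largest interacting event had 37 pairs and joined 1152801, in the right peak, to 1171851 in crd1, a cardiolipin synthase gene, 19.1 kb away. Without it the near difference between the libraries was 4.26 points (adjusted p = 0.000316, exact). The largest de-crosslinked event had 21 pairs and joined 1149951, in the left peak, to position 764226 of chromosome II in stt4, a phosphatidylinositol 4-kinase gene. The 5 largest events held 16.4% of interacting and 5.07% of de-crosslinked partner pairs.

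**Figure D5:**
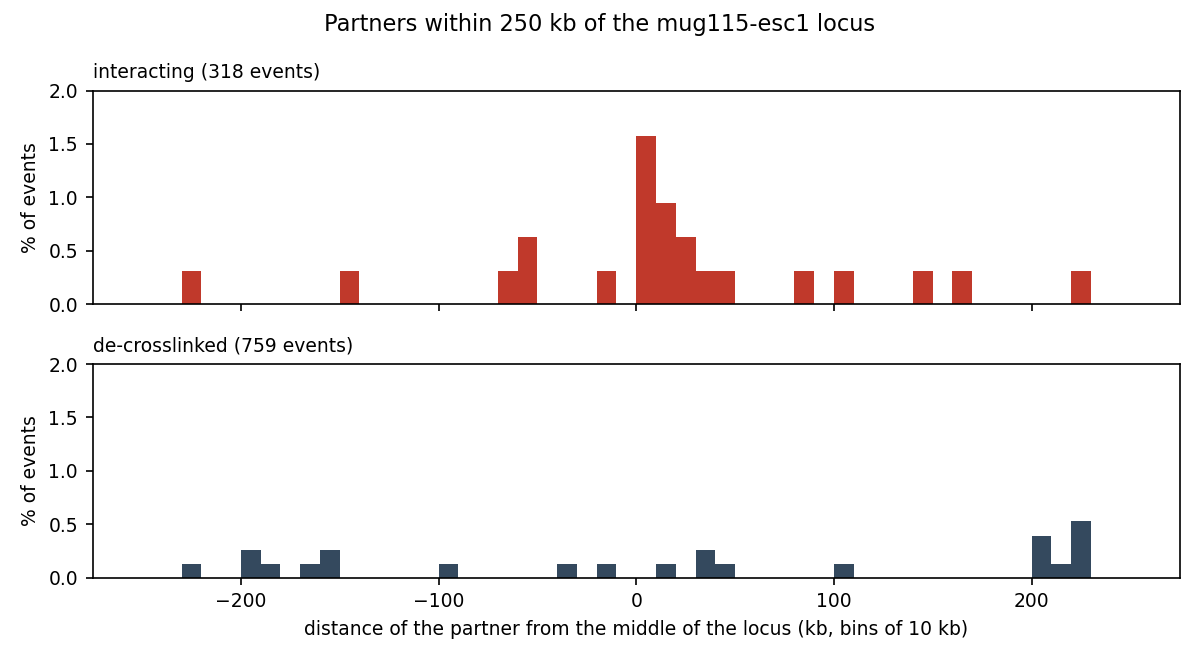
Partners of the locus within 250 kb on each side, as a percent of all partner events of the library (vertical axes), in bins of 10 kb by distance from the middle of the locus (horizontal axis, right is towards esc1). In the interacting library 13 of the 17 events within 100 kb lie on the right, and the de-crosslinked library has 7 on this axis, since the event that lies 100.3 kb from its own end in the locus is nearer than 100 kb to the middle.

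Partners classed hot made up 40.6% (35.1% to 46.2%) of interacting and 47.6% (44.0% to 51.2%) of de-crosslinked partners of the locus. For other ends of chromosome I the hot share was 35.2% and 38.8%, and for other hot ends 40.2% and 41.1%. The difference between the libraries at the locus, -7.00 points (-13.3 to -0.479, p = 0.0377), did not pass after adjustment (adjusted p = 0.138, exact), while it was -14.1 points with an adjusted p of 8.38e-10 when every pair was counted. Neither gti1 nor ste11 differed past the threshold from the locus in this share. The differences, locus minus other, were -1.54 (-10.3 to 7.08) and 2.02 (-3.72 to 7.71) points for gti1 in the interacting and de-crosslinked libraries and -0.36 (-9.21 to 8.34) and 5.62 (-0.0317 to 11.2) points for ste11, with adjusted p of 0.861, 0.861, 1 and 0.151 (exact).

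The partners were spread over many places. Counting each hot region or 5 kb tile as a place, the 318 interacting events reached 259 places and 40 of them at least 2 times, and the 759 de-crosslinked events reached 546 and 123. The libraries shared 103 places, which were 39.8% of the interacting and 18.9% of the de-crosslinked places. No random level is given here for the number of places reached or shared. Only 8 places had at least 7 events over both libraries, all of them hot regions, and 8 more had 6. Hot regions were 92 of the 259 interacting and 186 of the 546 de-crosslinked places. They hold more ends than most tiles, so an ordering by number of events favours them. The 12 described fill up from those with 6 by order along the genome, which leaves out 4 with as many. These are a tile outside the authors' hot regions on chromosome II next to tlh2, with 4 interacting and 2 de-crosslinked events, and 3 hot regions on chromosome III, with ght5 and ght6 (4 and 2), oca2 and gnr1 (3 and 3) and ole1 (2 and 4). The tile still holds a hotspot called here, from 4535001 to 4538000, with 472 interacting and 534 de-crosslinked ends. First of the 12 came the hot region over ptl2, a triacylglycerol lipase gene, SPAC1786.04 and plb2, a phospholipase gene, 1877 kb away, with 3 interacting and 7 de-crosslinked events against 0.711 and 1.82 at random. The region with ste7, a meiosis-specific arrestin family gene, 686 kb away, had 3 and 6 events against 1.16 and 3.45.

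The region with SPAC17A2.11 had 1 and 8 events against 1.61 and 3.45, and that with abp1 and adg1 had 0 and 7 against 0.630 and 1.8. The region with gti1 had 1 and 6 events against 1.075 and 3.758. On chromosome II the region with nep2, which encodes a protease that acts on the ubiquitin-like protein NEDD8, had 4 and 4 against 0.567 and 1.32. That with isp4, an oligopeptide transporter gene, had 3 and 3 against 0.499 and 0.900. The one with fhn1 had 1 and 7 against 1.156 and 3.308. The region with rtn1 and but2 had 2 and 4 against 1.111 and 2.865, and that with cup1 and eno101 had 1 and 5 against 0.594 and 1.883. On chromosome III the region with bfr1 and wee1, the mitotic inhibitor kinase gene, had 2 and 5 against 0.616 and 1.173. The last of the 12, with mtf2, mug116 and mug86, 342 kb away on chromosome I, had 3 and 3 against 0.490 and 1.03. These places were picked from their number of events, so no test of their excess is given.

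Joins to other hotspots were above the random level by count, beyond counting error in the de-crosslinked library only. In the interacting library 16 of the 49 were joined, by 22 events against 16.0 at random, a ratio of 1.37 (0.861 to 2.08), and 5 of them by at least 2 events. In the de-crosslinked library 33 of the 49 were joined, by 68 events against 52.1, a ratio of 1.3 (1.01 to 1.65), and 19 by at least 2. Only the events have a random level here, and 52.1 random events over 49 hotspots would also join many of them. Nothing is therefore read from the numbers of hotspots joined. In the de-crosslinked library 47.56% of the locus's partners were classed hot, against 38.7% of all event ends. Whether joins to the 49 hotspots exceed those to hot ends in general was not tested. The most events went to gti1 (1 interacting and 6 de-crosslinked), SPAC17A2.10C and SPAC17A2.11 (1 and 5), ste11 (1 and 4), SPCC1235.17 (3 and 2) and ste7 (2 and 3). The ratios of the 2 libraries overlap in their intervals, so an added tendency of the locus to meet other hotspots with crosslinks in place was not detectable at this depth.

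The partners of the parts of the locus around the 3 peaks were not distinguishable beyond counting error. With the locus split at 1150950 and 1152550, the left, middle and right parts had 8 of 95, 4 of 112 and 5 of 111 interacting partners within 100 kb, and 1 of 227, 3 of 294 and 2 of 238 de-crosslinked ones. Their hot shares were 34.7% (25.3% to 45.2%), 40.2% (31.0% to 49.9%) and 46.0% (36.5% to 55.7%) in the interacting library and 50.2% (43.5% to 56.9%), 48.3% (42.5% to 54.2%) and 44.1% (37.7% to 50.7%) in the de-crosslinked one. From left to right the hot share went opposite ways in the 2 libraries and their intervals overlap.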

How the data were processed

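The deposited tables give, for each ligated pair, the chromosome and position of both ends and whether the authors classed them hot or cold; these values are positions and classes, not counts, and all counts were made here from them. CASAVA 1.8.0 is named per the submitters' processing notes. How reads were aligned, to which build, and how hot and cold were assigned is not given in the sources used here. Positions were checked against ASM294v3: its 468527 bp without a unique 50 bp word held 0 ends, against 2460 and 2466 with positions moved by -100 and 100 bp, and none of those bases lay within 20 kb of the locus. Genes, coding sequences and the printed sequence are RefSeq's, ASM294v3.

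The locus, lists and tests were chosen with earlier results of these data known. Pairs were linked into events by single linkage at 500 bp on both ends, and 1.36% of interacting and 0.950% of de-crosslinked pairs were exact repeats. A hotspot was a run of 1 kb bins, 1 gap bin allowed, each with 10 times the median de-crosslinked ends or more. Random levels for partners were partners times the share of the library's event ends in a band or place. The random level for pairs within the locus is in pairs, copies included, so its ratios are not on the same footing. Shares have exact Clopper-Pearson and counts exact Poisson intervals. Partner shares were compared by 11 two-sided Fisher's exact tests with Benjamini-Hochberg adjustment and a threshold of 0.05, made with scipy 1.17.1 in Python 3.11.15. Named are the genes of the locus, the 12 places with most events (ties by position), up to 10 within 100 kb, and the hotspots with most joins or nearest in density. The other 6 of the 8 samples were not analysed here.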

Additional observations from a re-analysis of the deposited data

How the results depend on the processing

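Of 120 values recomputed under other settings, 101 kept their direction and their side of the threshold, or moved by less than counting error; the event of most pairs was left out as a setting chosen after seeing the data. With every pair counted, 3 differences newly passed: the hot share between libraries (-14.1 points), and the de-crosslinked near share against gti1 (-1.37 points) and ste11 (-1.66 points). The interacting minus de-crosslinked difference on other chromosomes turned to -0.32 points with a link distance of 1000 bp, -1.42 with the locus narrowed by 1 kb on each side and -0.73 with it widened. With a limit of 50 kb the de-crosslinked near differences turned to 0.585 points (gti1) and 0.388 (ste11), and the interacting one from ste11 lost its call at -5.42. With partners at least 20 kb away the near difference between libraries lost its call at 1.74 points. The share of library ends in the locus was 0.466% and 0.682% by event ends, 0.285% and 0.488% when narrowed and 0.477% and 0.800% when widened (interacting and de-crosslinked); the fullest 1 kb held 42.3% and 40.9% when narrowed, and 25.3% of interacting ends when widened. The cause of each change was not tested, beyond the events each setting leaves out. No paired analysis was possible because each group has 1 library. The 17 and 6 near events set the precision of every near share, and linking at 500 bp cannot part copies from separate junctions within the locus.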
